A study of Mus musculus with 13 samples.

Results

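The 7 genes described here encode subunits of the type A GABA receptor: the alpha subunits Gabra2, Gabra3, Gabra4 and Gabra5, the beta subunits Gabrb1 and Gabrb2, and the delta subunit Gabrd. They were taken by gene symbol, as 7 of the 32285 genes in the deposited count matrices. The study profiled nuclei of the frozen whole hippocampus of female hybrid mice (C3B6F1 in the series text, C3HB6F1 in the sample labels) by RNA sequencing of single nuclei in droplets, 13 mice giving 1 library each. Young mice fed ad libitum were 5 months old (n = 3, replicates 1, 2 and 3). The other 3 groups were 24 months old: fed ad libitum (n = 3, replicates 1, 2 and 4), restricted from 20 months, called acute dietary restriction (n = 3), and restricted from 5 months, called long-term dietary restriction (n = 4). Nuclei were stained with Hoechst, a DNA dye, and sorted. How much food the restricted mice received is not given in the sources used here.

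Each library held 38546292 to 80538090 unique molecular identifiers (UMIs, the counts of distinct RNA molecules) in 3524 to 12368 barcodes, with a median of 3688 to 11195 UMIs per nucleus. Clustering used all 105427 barcodes kept, doublets included. After removal of 7386 doublets, 98041 nuclei lay in 34 clusters. Of these clusters, 19 could be named from marker genes, which placed 65985 nuclei in 15 classes, and 32056 nuclei stayed without a name. 1351 barcodes occurred in more than 1 library. None of the 7 subunit genes was used as a marker or as a variable gene in the clustering. Class names below are short for nuclei with the markers of that type. Each class had a list of 7 or 8 markers, of which at least 3 had to be raised. In 11 classes the counts could be tested between groups, and 9 of these had sums from all 13 mice. Young libraries were the shallower ones in most classes, so age and depth cannot be told apart by the design alone.

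The type A GABA receptor is a chloride channel of the cell membrane that opens when GABA, the main inhibitory transmitter of the forebrain, binds. It is a ring of 5 subunits, usually alpha, beta and a gamma or delta subunit. The alpha subunit sets much of the kinetics and drug sensitivity, the beta subunit is needed for assembly and contributes to the GABA site, and the delta subunit takes the place of gamma in receptors outside the synapse. In the hippocampus, receptors with alpha 2 are known at synapses on pyramidal neurons, receptors with alpha 5 at extrasynaptic sites of CA1 and CA3 pyramidal neurons, and receptors with alpha 4 and delta in dentate granule neurons, where they carry tonic inhibition.

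In the mouse genome (GRCm38, GENCODE release 21 gene models) 3 members lay together on chromosome 5. Gabra2 (ENSMUSG00000000560) spanned chr5:70957597-71095849 on the minus strand, Gabra4 (ENSMUSG00000029211) chr5:71569749-71658308 on the minus strand, and Gabrb1 (ENSMUSG00000029212) chr5:71658113-72149037 on the plus strand. The other members lay apart, with Gabra3 (ENSMUSG00000031343) at chrX:72432681-72656848 on the minus strand, Gabra5 (ENSMUSG00000055078) at chr7:57407672-57510059 on the minus strand, Gabrb2 (ENSMUSG00000007653) at chr11:42419757-42629028 on the plus strand, and Gabrd (ENSMUSG00000029054) at chr4:155384980-155398112 on the minus strand. Gabrb1 was longer than 99.3% of the genes in the matrices, with a span of 490.9 kb, and Gabrd was close to the middle of the genome, with 13.1 kb against a median of 12.3 kb over all genes. Gabra4 and Gabrb1 overlapped each other by 196 bases, and an antisense gene, Gm38562, covered 19557 bases of Gabrb1. Whether the authors' counting used strand is not given in the sources used here, so the UMIs of Gabra3, Gabra4, Gabra5 and Gabrb1 may include some from the opposite strand.

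Promoters are shown for 3 members because their base composition differed: the 250 bases before the RefSeq start (GRCm38.p6), 5′ to 3′ on the gene's strand, in lower case with motif matches in capitals. The motifs searched on both strands were a TATA box (TATAAA), a GC box (GGGCGG), a cAMP response element (TGACGTCA), an E-box (CACGTG) and an EGR site (GCGTGGGCG). Gabra2, chr5:71095850-71096099, minus strand: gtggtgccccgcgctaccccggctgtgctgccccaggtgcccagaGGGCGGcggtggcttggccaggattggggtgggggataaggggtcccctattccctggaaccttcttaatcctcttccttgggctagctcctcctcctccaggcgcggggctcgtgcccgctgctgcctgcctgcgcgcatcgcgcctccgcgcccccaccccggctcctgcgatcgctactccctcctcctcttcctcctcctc
Gabrb2, chr11:42420190-42420439, plus strand: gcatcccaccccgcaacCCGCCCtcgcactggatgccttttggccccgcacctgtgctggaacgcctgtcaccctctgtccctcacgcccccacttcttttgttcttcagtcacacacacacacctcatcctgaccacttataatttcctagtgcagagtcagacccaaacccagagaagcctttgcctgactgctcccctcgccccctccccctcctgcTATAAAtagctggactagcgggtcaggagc
Gabra3, chrX:72656920-72657169, minus strand: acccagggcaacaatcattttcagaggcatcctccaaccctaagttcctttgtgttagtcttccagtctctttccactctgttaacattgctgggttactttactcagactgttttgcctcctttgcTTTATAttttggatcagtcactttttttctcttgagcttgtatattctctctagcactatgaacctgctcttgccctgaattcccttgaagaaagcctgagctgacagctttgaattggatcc
The Gabra2 window held 18 CpG pairs and 1 GC box. The Gabrb2 window held 8 CpG pairs, a GC box read on the other strand (CCGCCC) and a TATA box close to the start. RefSeq lists 3 Gabrb2 starts, and the windows of the other 2 held neither motif. The Gabra3 window held 0 CpG pairs and a TATA match on the other strand (TTTATA). Over all 32851 RefSeq promoter windows of this length, 12.368% held the TATA letters and 32.742% the GC box letters, so such matches are common. The other 3 motifs were in 1.546%, 6.021% and 0.536% of all windows and in none of the windows of the 6 members that had an entry. A match describes the letters and shows no binding.

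Levels were compared between classes as log2 CPM, the gene's part of the UMIs summed per mouse and class on the usual CPM scale (prior count 2, TMM-scaled), given as the mean over the 13 mice. A gap between neighbouring classes in this order was measured within each mouse, and was taken as larger than the spread where its mean exceeded 2 SD over mice. By that measure 15 of 56 neighbouring gaps stood out, as a description with no test. Comparisons of levels below are between classes for the same gene.

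Gabra2 was highest in the 3 main excitatory types. Its level was 9.45 in dentate granule neurons, 9.11 in CA3 pyramidal neurons and 8.92 in CA1 pyramidal neurons, with a granule gap over CA3 of 0.34 ± 0.18 (SD, n = 13 mice), which is under 2 SD. Astrocytes came next with 8.72, below CA1 by 0.20 ± 0.32, in 10 of 13 mice and under 2 SD. They were above inhibitory neurons at 7.58 by 1.14 ± 0.30, in 13 of 13 mice. Oligodendrocyte precursors (OPCs), microglia, subicular or cortical neurons and oligodendrocytes followed with 6.97, 6.35, 5.71 and 5.55. In nuclei thinned to 1000 UMIs each, a median of 49.3% of granule nuclei, 30.7% of astrocytes, 7.43% of microglia and 4.26% of oligodendrocytes had at least 1 Gabra2 UMI. Unthinned, the granule share was 95.5%.

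Gabra3 had another order. It was highest in subicular or cortical neurons at 6.72, inhibitory neurons at 6.41 and OPCs at 6.25. CA1 followed at 5.06, and it was lowest in granule neurons at 1.21. The OPC gap over CA1 was 1.20 ± 0.49 in 13 of 13 mice, and the top 3 classes differed from each other by less than 2 SD. After thinning, 9.84% of subicular or cortical nuclei and 7.13% of OPCs had a Gabra3 UMI, against 0.218% of granule nuclei and 0.147% of microglia.

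Gabra4 was led by granule neurons at 8.07, above CA3 at 6.68 by 1.39 ± 0.27 in 13 of 13 mice. CA3, CA1, inhibitory neurons and astrocytes lay at 6.68, 6.59, 6.55 and 6.54, with no gap among them beyond 2 SD. Thinned shares were 23.2% of granule nuclei, 9.89% of CA3 nuclei and 8.76% of astrocytes, against 1.76% of microglia and 1.63% of oligodendrocytes.

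Gabra5 was shared by the pyramidal classes. CA1 and CA3 stood at 7.46 and 7.37, a gap of 0.10 ± 0.14 that was under 2 SD, and CA3 exceeded granule neurons at 6.80 by 0.57 ± 0.23. Subicular or cortical neurons at 6.58 were above inhibitory neurons at 5.07 by 1.51 ± 0.43. A median of 15.7% of CA1 nuclei had a Gabra5 UMI after thinning, against 0.843% of microglia and 0.836% of oligodendrocytes.

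Gabrb1 was highest in astrocytes, the glial cells that surround synapses. Their level was 12.33, a median of 5215 CPM, above CA3 at 10.86 by 1.47 ± 0.23 in 13 of 13 mice. Granule, CA1, subicular or cortical and inhibitory neurons had 10.48, 10.19, 9.89 and 9.44, and OPCs had 9.18, which exceeded microglia at 7.04 by 2.14 ± 0.71. After thinning, 98.5% of astrocytes and 39.8% of OPCs (26.7% to 49.5% over mice) had a Gabrb1 UMI, against 11.5% of microglia and 8.80% of oligodendrocytes.

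Gabrb2 was led by neurons. Inhibitory and granule neurons had 9.13 and 9.05, a gap of 0.08 ± 0.15 under 2 SD, and granule exceeded CA1 at 8.30 by 0.76 ± 0.07 in 13 of 13 mice. OPCs at 7.51 and CA3 at 7.32 had a gap of 0.19 ± 0.39, under 2 SD, with OPCs higher in 8 of 13 mice. Astrocytes, the top class for Gabrb1, were lowest for Gabrb2 at 4.24. The thinned share was 40.6% of granule nuclei, 15.1% of OPCs, 3.46% of microglia and 1.60% of astrocytes.

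Gabrd was led by granule neurons. Their level was 5.28, above inhibitory neurons at 4.40 by 0.88 ± 0.34 in 13 of 13 mice, and CA3 had the lowest level, 1.08. A thinned Gabrd UMI was seen in 4.02% of granule nuclei (22.9% unthinned), 1.89% of inhibitory nuclei and 0.194% of microglia. The mean microglial values of 3.88 for Gabrd and for Gabra3 lie close to 3.45, the value of a sum with no UMI, and are not read as a level.

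Shares in classes taken to lack these receptors give the background that free RNA can leave. In endothelial and mural cells, with medians of 1616.5 and 1387 UMIs per nucleus, the thinned shares were 8.86% and 10.8% for Gabra2, 14.9% and 18.2% for Gabrb1, and 5.75% and 4.34% for Gabrb2. In macrophages they were higher, 13.5%, 32.4% and 17.5%, in a cluster where 46.6% of the barcodes had been called doublets and removed. The OPC share of 10.3% for Gabra2 lay within the vascular values, in deeper nuclei (median 3376 UMIs). It and the oligodendrocyte and microglial shares above are not told apart from background here. The OPC share of 15.1% for Gabrb2 lay above the vascular and microglial shares and below that of the macrophage cluster. The OPC shares of Gabra3 (7.13%, against at most 0.978%) and Gabrb1 (39.8%, against at most 32.4%) lay above those of endothelial cells, mural cells and macrophages.

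**Figure D1:**
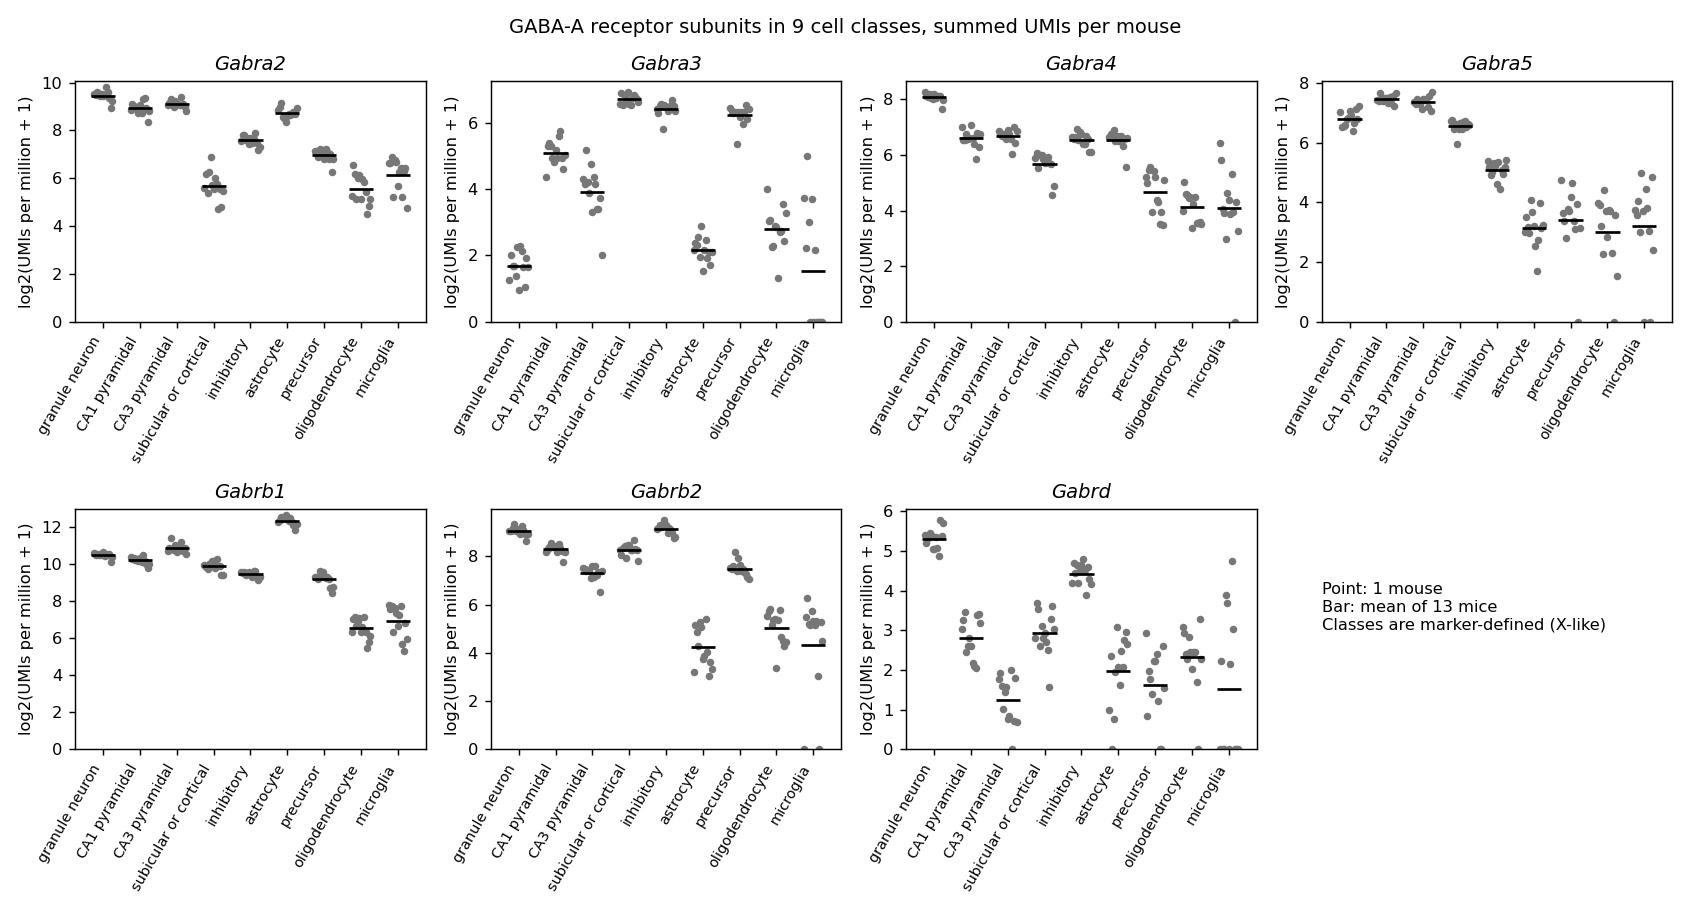
Level of each subunit gene (panels) in 9 cell classes, on a log2 scale of UMIs in proportion to the total of the sum, with 1 added; each point is 1 mouse and each bar the mean of 13 mice. Gabrb1 peaks in astrocytes, Gabra4 and Gabrd in dentate granule neurons, Gabra5 in CA1 and CA3, and Gabra3 in subicular or cortical neurons, inhibitory neurons and precursors.

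Within inhibitory neurons the subunits were divided between subtypes, which were named from markers: parvalbumin, somatostatin, Vip, Lamp5 (neurogliaform type) and Cnr1-high. Of 13 subclusters 6, with 1611 of 5072 nuclei, stayed without a name, so the order below is among the named subtypes. Of 28 neighbouring gaps, 6 exceeded 2 SD. Gabra2 was highest in the Cnr1-high subtype at 8.38, above somatostatin neurons at 7.76 by 0.60 ± 0.28 (12 of 12 mice), and lowest in parvalbumin neurons at 5.63. Gabra3 was highest in somatostatin neurons at 7.20, above parvalbumin neurons at 6.56 by 0.63 ± 0.27 (12 of 12 mice).

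Lamp5 and parvalbumin neurons led for Gabra4 and Gabrd. Gabra4 had 7.59 and 7.18 in these, and the step from parvalbumin to Vip neurons at 6.22 was 0.92 ± 0.32. Gabrd had 5.58 in parvalbumin and 5.43 in Lamp5 neurons, and the step from Lamp5 to Vip neurons at 2.96 was 2.52 ± 0.69, again in 12 of 12 mice. The thinned share of nuclei with a Gabrd UMI was 4.39% in parvalbumin and 3.50% in Lamp5 neurons, against 0.183% in somatostatin neurons.

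Gabrb2 was highest in Lamp5 neurons at 10.15, above parvalbumin neurons at 9.20 by 0.95 ± 0.26 (12 of 12 mice). Gabrb1 ran from 9.92 in Vip to 9.08 in parvalbumin neurons, with a step of 0.39 ± 0.14 from Cnr1-high down to somatostatin neurons (12 of 12 mice). Gabra5 ran from 6.33 in Lamp5 to 3.51 in somatostatin neurons with no neighbouring gap beyond 2 SD.

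**Figure D2:**
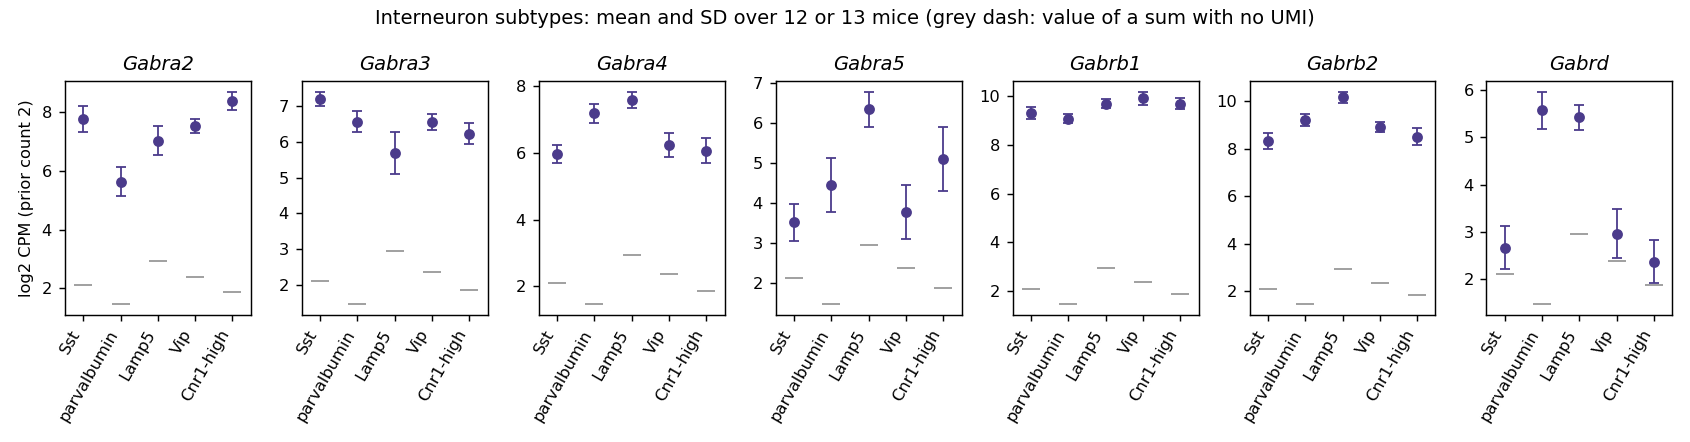
Mean log2 CPM (points) and SD over 12 or 13 mice (bars) of each subunit gene in 5 inhibitory neuron subtypes; the grey dash is the value of a sum with no UMI. Gabrd separates parvalbumin and Lamp5 neurons from the other 3 subtypes, which lie close to the dash, and Gabra2 runs from Cnr1-high at the top to parvalbumin at the bottom.

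The clusters within and near the excitatory classes also differed. Granule neurons formed cluster 0 and cluster 1, and cluster 1 had more Gabra5 in 13 of 13 mice, by 0.75 ± 0.25, and less Gabra2 and Gabrb2 in 13 of 13 mice, with differences of -0.25 ± 0.06 and -0.27 ± 0.08. Cluster 3, outside that class, differed from cluster 0 in the same directions in 13 of 13 mice. Its differences were 0.53 ± 0.23 for Gabra5, -0.29 ± 0.09 for Gabra2 and -0.16 ± 0.06 for Gabrb2. Cluster 7, led by Pde11a, Cpne7 and Dcn and left without a name, had more Gabra3 than the CA1 cluster in 13 of 13 mice, by 1.73 ± 0.47, and less Gabra5, with a difference of -0.60 ± 0.26. Clusters 15 (led by Cpa6 and Esr2) and 22 (led by Fn1), also without a name, showed the same 2 directions: 1.92 ± 0.35 and 1.77 ± 0.53 for Gabra3, and -1.34 ± 0.48 and -1.38 ± 0.31 for Gabra5. All 3 had more Gabra3 and less Gabra5 than the CA1 nuclei.

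Genes with the most similar profile over the 11 class means were found by Pearson's r among 13831 genes, as a description. Gabra5 was followed most closely by Dnah9 (r = 0.991), Rasgef1a (0.973) and Nphp4 (0.973), and Gabrb2 by Nsg2 (0.965), Lhfpl4 (0.958) and Dpp6 (0.956). Gabrb1 was most like Gpm6a (0.960), Trim9 (0.954) and Ppargc1a (0.944). Gabra3 was most like Gap43 (0.949), Elavl4 (0.935) and Igsf9b (0.914), and Gabra2 most like Syt17 (0.939), Nr3c2 (0.912) and Dgkb (0.903). Gabrd was most like C1qtnf4 (0.914), Oprd1 (0.913) and Nfx1 (0.910), and Gabra4 most like Sgsm2 (0.913), St6galnac5 (0.900) and Dapk1 (0.894). All genes share the same libraries and class depths in these values.

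Ageing was tested as old against young mice fed ad libitum, with edgeR's quasi-likelihood test on the sums in each class, adjusted over all genes of the class. Of 77 gene and class pairs, 60 passed the filter on low counts. Over all classes 2.11% of the tested genes were called at an adjusted p under 0.05. Of the 60 member pairs 5 were called, all higher in old mice: Gabra2, Gabra4, Gabrb1 and Gabrb2 in oligodendrocytes and Gabrb1 in OPCs. The background in oligodendrocytes was 7.83% called, with 3.67% called higher. In OPCs it was 1.06%, with 0.603% called higher, and over all classes 1.27% were called higher. Direction was more widely shared than the calls. In 48 of 60 pairs the old mice were higher, with a median log2 difference of 0.33, where 47.6% of all tested genes were higher, with a median of -0.025. The exceptions included mural cells, with 0 of 3 tested members higher (-1.20 to -0.75), and endothelial cells, with 1 of 3. The classes come from the same mice and libraries, so these pairs are not independent.

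The 4 oligodendrocyte values rested on few counts in young mice. Oligodendrocyte Gabra2 had 4.38, 4.88 and 5.15 in the young mice (2, 25 and 35 UMIs) and 5.38, 6.58 and 6.18 in the old mice fed ad libitum (15, 324 and 182 UMIs). Every old mouse was above every young one, by a narrow margin for old replicate 1. The fold change was 1.33 ± 0.28 (log2, SE, adjusted p = 0.00366).

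Gabrb2 showed the wider gap. Its young values in oligodendrocytes were 4.38, 4.35 and 4.51, and its old values were 5.63, 5.77 and 5.82, so the groups stood over 1 log2 unit apart. The change was 1.40 ± 0.32 (adjusted p = 0.00772). Under acute restriction Gabrb2 was 5.13, 5.33 and 5.37, and under long-term restriction it was 3.42, 5.34, 5.78 and 4.73 (3, 80, 107 and 43 UMIs). In the last group only the 3.42 lay below the young values. The others lay above them, with 5.78 within the range of the old ones. Gabrb1 in oligodendrocytes rose by 1.08 ± 0.23 (adjusted p = 0.00392), from 5.34, 5.82 and 6.13 to 6.45, 7.05 and 7.14, again without overlap. Gabra4, at 1 to 11 UMIs per young mouse, rose by 1.26 ± 0.36 (adjusted p = 0.0258).

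In OPCs the counts were larger. Gabrb1 had 8.68, 8.35 and 8.69 in the young mice (206, 134 and 222 UMIs) and 9.35, 9.28 and 9.20 in the old mice fed ad libitum (568, 796 and 804 UMIs). All old values lay above all young values, and those of the restricted old mice, from 9.19 to 9.65, also lay above the young range. The change was 0.68 ± 0.12 (adjusted p = 0.00427). With doublets kept it was 0.30 and was not called (adjusted p = 0.204). Of the neuronal markers tested in OPCs none was called for ageing by edgeR, and 3 of 4 CA1 markers were higher in old mice, with a median of 0.71, 5 of 6 CA3 markers (0.21), 4 of 6 granule markers (0.07) and 2 of 5 inhibitory markers (-0.17). Their part in the OPC value was not tested.

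**Figure D3:**
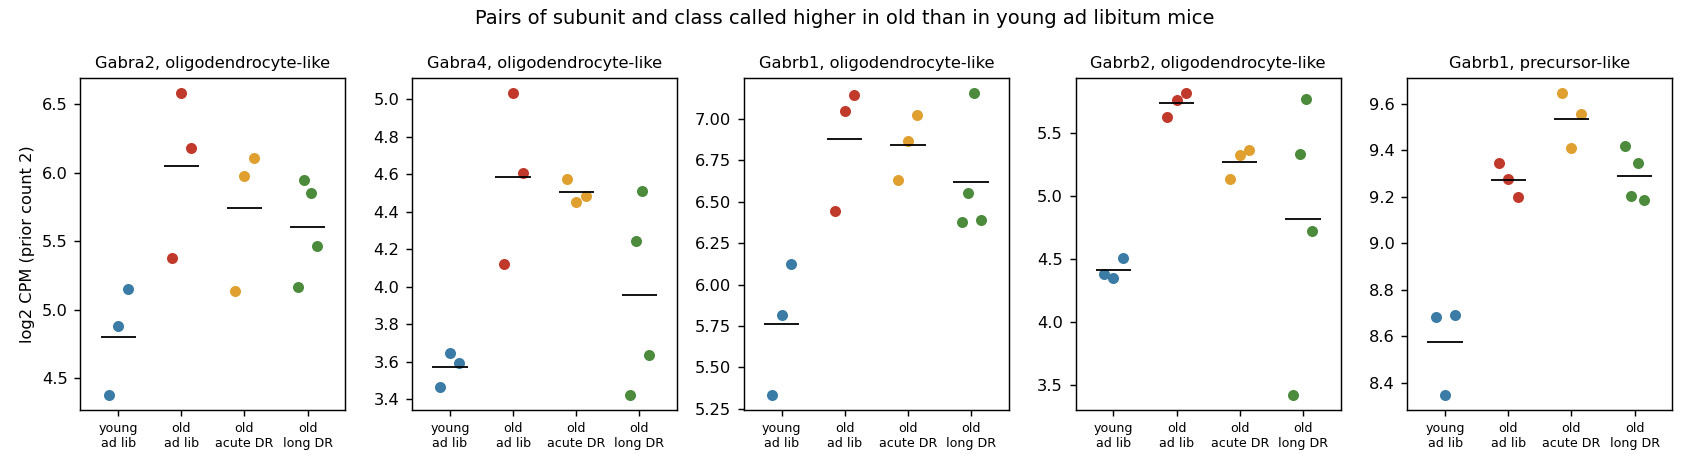
Log2 CPM in each mouse (points) and group mean (bars), by group, for the 5 gene and class pairs called between old and young mice fed ad libitum. Young mice lie below the old mice fed ad libitum in each panel. Under long-term restriction, replicates 1 (3.42, 3 UMIs) and 4 (3.63, 19 UMIs) lie below or within the young range for oligodendrocyte Gabra4. For oligodendrocyte Gabrb2 only replicate 1 does (3.42, 3 UMIs). Acute restriction replicate 1 lies within the young range for oligodendrocyte Gabra2 (5.13, 9 UMIs).

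Several measures moved with the oligodendrocyte calls. The 2 members tested in microglia were also higher in old mice, by 1.05 and 1.39. Each had an unadjusted p under 0.05 in edgeR, and neither was called. The thinned shares of oligodendrocytes with a UMI of Gabra2, Gabra4, Gabrb1 or Gabrb2 were at or below the shares in microglia. Microglia were taken as lacking these genes, and the oligodendrocyte shares were not told apart from background. The granule markers Trpc6 and Glis3 were also called in oligodendrocytes, by 1.49 ± 0.35 (adjusted p = 0.00894) and 1.93 ± 0.46 (adjusted p = 0.0125), 2 of 6 granule markers tested, with 0 of 8 for CA1, 0 of 5 for CA3 and 0 of 5 for inhibitory neurons. The median differences of these 4 lists were 0.17, 0.40, 0.35 and -0.01. The summed granule markers in oligodendrocytes ran from 853 to 1055 CPM in young and 1046 to 1120 in old mice fed ad libitum. Median UMIs per oligodendrocyte were 1182 to 1743 in young and 1989 to 3169 in old mice, and per OPC 1905 to 2846 and 3394 to 6063. With the median UMI count as a covariate none of the 60 pairs was called, where 0.0382% of all tested genes were. The folds were then 1.75, 1.61, 1.03 and 1.01 for Gabra2, Gabra4, Gabrb1 and Gabrb2 in oligodendrocytes. Depth and age cannot be told apart. The part of free RNA in these results was not tested.

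Gene length and the library numbered 1 of each group also bore on the calls. With the trend of fold change on gene length removed, 2 pairs were called, Gabra2 (1.07) and Gabrb2 (1.03) in oligodendrocytes, 0.988% of all genes tested were called, and Gabrb1 was not called, with 0.47 in oligodendrocytes (adjusted p = 0.197) and 0.40 in OPCs (adjusted p = 0.0945). Under it 40 of 60 pairs were higher, with a median of 0.136. The libraries numbered 1 deviated together from their groups, and with a term for them 14 pairs were called, where 7.47% of all genes were. Without young replicate 2 all 4 oligodendrocyte calls were lost (adjusted p = 0.0890, 0.186, 0.101 and 0.123 for Gabra2, Gabra4, Gabrb1 and Gabrb2), with folds of 1.24, 1.30, 0.99 and 1.34. Of all tested genes 0.271% were called in that setting.

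In neurons and astrocytes no member passed the threshold for ageing by edgeR without added terms. In granule neurons, where 7.14% of tested genes were called, the young values of Gabra2 were 9.29, 8.71 and 9.14, against 9.58, 9.50 and 9.60 in the old group fed ad libitum. These did not overlap, and the difference was 0.50 ± 0.15 (adjusted p = 0.0532). Gabrb2 and Gabra4 differed by 0.42 ± 0.14 (adjusted p = 0.0767) and 0.37 ± 0.14 (adjusted p = 0.106), and Gabrd, the delta partner of alpha 4, by -0.18 ± 0.16 (adjusted p = 0.462). Different clusters held most granule nuclei in the 2 ages: cluster 0 had 6.15% to 25.9% of them in young mice and 71.5% to 89.0% in old mice fed ad libitum. Within cluster 0 the Gabra2 difference was 0.29 (adjusted p = 0.205) and within cluster 1 it was 0.32 (adjusted p = 0.172). With the term for libraries numbered 1, Gabra2, Gabra4 and Gabrb2 were called in the granule class (adjusted p = 0.0188, 0.0257 and 0.0288). That setting called 7.47% of tested genes over all classes, against 2.11% without the term.

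Astrocyte Gabrb1 was 12.05, 11.87 and 12.11 in the young group, against 12.35, 12.35 and 12.47 in the old group fed ad libitum. The groups did not overlap, and the difference of 0.38 ± 0.11 did not pass (adjusted p = 0.140), where 0.305% of astrocyte genes were called. Inhibitory Gabrb2 ranged from 8.64 to 8.87 in the young and from 9.17 to 9.31 in the old group, a difference of 0.46 ± 0.12 (adjusted p = 0.109), where 0.0974% of genes were called. In CA1 and CA3 0% were called. CA3 Gabra3 was 3.36, 3.55 and 1.92 in the young (30, 10 and 5 UMIs) and 4.39, 4.15 and 5.12 in the old group (39, 48 and 35 UMIs). The difference, on these few counts, was 1.56 ± 0.43 (adjusted p = 0.170).

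By member, Gabra4 was higher in old mice in 8 of 8 classes tested, Gabrb2 in 9 of 10, Gabra2 and Gabrb1 each in 9 of 11, Gabra3 in 6 of 7, Gabra5 in 5 of 8 and Gabrd in 2 of 5. With the length trend removed the same counts were 6 of 8, 8 of 10, 9 of 11 and 7 of 11, 3 of 7, 3 of 8 and 4 of 5, so the majority for Gabra3 and Gabra5 turned to a minority and that for Gabrd to a majority. The Gabrd differences ran from -0.18 to 0.17, and from -0.05 to 0.34 with the trend removed.

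**Figure D4:**
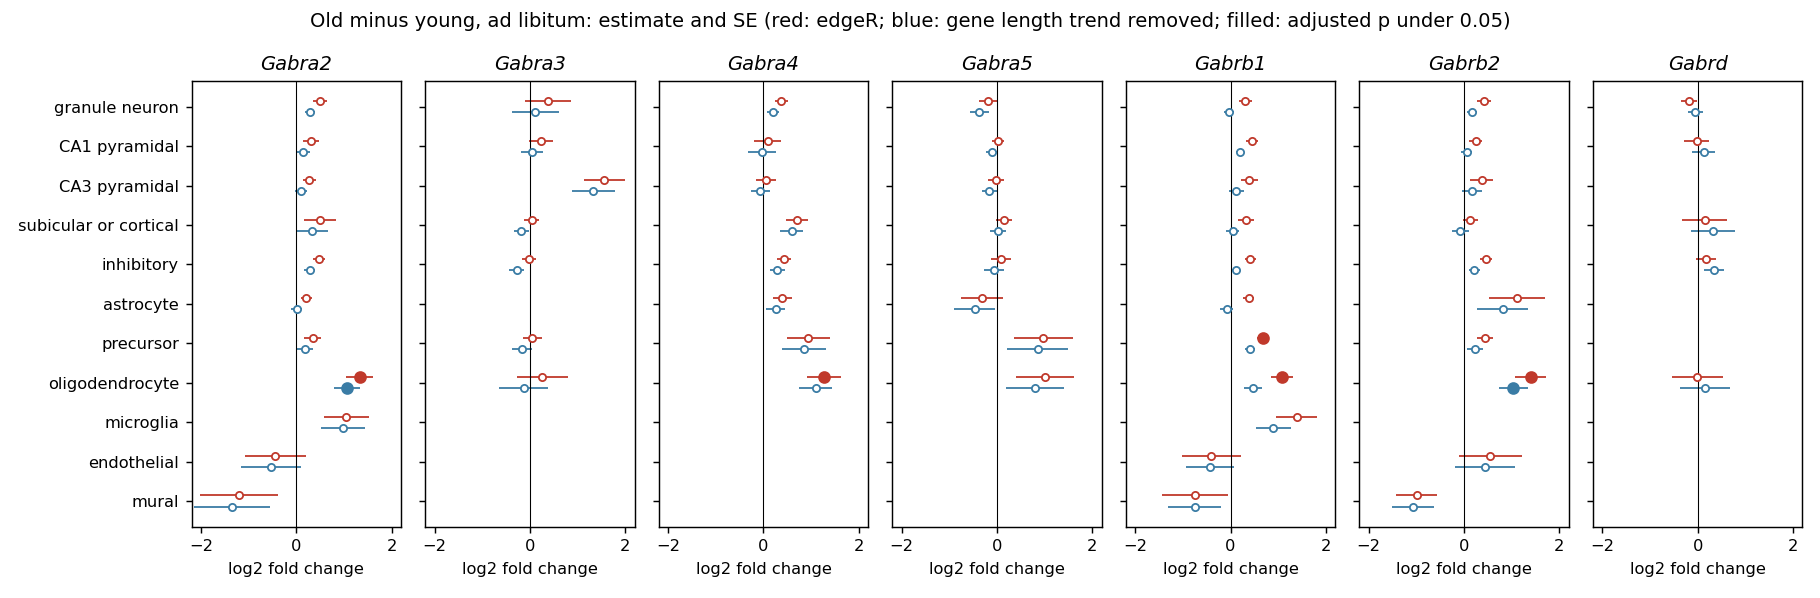
Log2 fold change of old over young mice fed ad libitum for each subunit gene (panels) in each class tested (rows), with SE, from edgeR in red and with the gene length trend removed in blue; filled points were called. The red points lie mostly above 0, 48 of 60 with a median of 0.33, with the 5 called ones in oligodendrocytes and precursors. Of the blue points 40 of 60 lie above 0, with a median of 0.136.

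Dietary restriction was compared with old mice fed ad libitum, from the same fits. The long-term and acute comparisons share these 3 controls. No member was called under long-term restriction (0.0439% of all tested genes were), under acute restriction (0.219%) or between them (0.0115%), by edgeR. At an unadjusted p under 0.05 the counts were 7, 4 and 4 of 60, where 4.75%, 5.14% and 2.91% of all tested genes reached it. DESeq2 called 0, 1 and 0 members, where it called 0.0525%, 0.189% and 0.0124% of all tested genes. Members were higher in 23, 25 and 27 of 60 pairs, with medians of -0.043, -0.046 and -0.044, where 50.2%, 49.6% and 49.7% of all genes were higher.

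Gabrd in CA1 had the smallest p of the long-term comparison. It was 3.02, 3.18 and 3.37 in old mice fed ad libitum (23, 81 and 50 UMIs), 2.55, 1.92, 1.93 and 1.77 under long-term restriction (31, 8, 11 and 5 UMIs), and 2.29, 2.45 and 2.67 under acute restriction (40, 48 and 14 UMIs). Both restricted groups lay below the controls without overlap, and the young mice, at 3.31, 3.29 and 3.06, lay with the controls. The differences were -1.13 ± 0.26 (adjusted p = 0.908 in edgeR, from 0.204 to 1.0 over the alternatives) and -0.80 ± 0.26 (adjusted p = 1.00). In CA1 0% of tested genes were called under long-term restriction, and only 0.634% of CA1 nuclei had a Gabrd UMI after thinning.

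Gabra2 in astrocytes had the smallest p under acute restriction. It was 8.92, 8.99 and 9.09 in old mice fed ad libitum, 8.56, 8.51 and 8.34 under acute and 8.65, 8.63, 8.65 and 8.68 under long-term restriction. All 7 restricted mice lay below all 3 controls, and the young mice, at 8.72, 8.73 and 8.89, also lay below these controls and above the restricted mice. The acute difference of -0.52 ± 0.11 did not pass in edgeR (adjusted p = 0.0880), which called 0.0960% of astrocyte genes. It passed in DESeq2 (adjusted p = 0.0123), which called 0.189% of tested genes over all classes. The long-term difference was -0.34 ± 0.10 (adjusted p = 0.862). Median UMIs per astrocyte were 2855 to 5026 in the controls and 2277 to 3060 under acute restriction, and their part was not tested.

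Between the restriction schemes, Gabrb2 in OPCs had the smallest p. It was 8.25, 7.41 and 7.95 under acute and 7.70, 7.38, 7.53 and 7.40 under long-term restriction. The groups overlapped, and the difference was -0.41 ± 0.15 (adjusted p = 0.958), where 0.0108% of OPC genes were called. In oligodendrocytes all 7 members were lower under long-term restriction, with a median of -0.55 and 4 at an unadjusted p under 0.05, where 50.3% of the genes tested there were higher. They were lower in 7 of 7 with the length trend removed too, with 2 at an unadjusted p under 0.05, and none was called in either of these fits. The oligodendrocyte shares of Gabra2, Gabra4, Gabrb1 and Gabrb2 were not told apart from background above. Of the neuronal markers tested there, 1 of 6 granule markers was higher (median -0.14), 4 of 8 CA1 markers (-0.24), 4 of 5 CA3 markers (0.03) and 4 of 5 inhibitory markers (0.04), and median UMIs per oligodendrocyte were 1673 to 2300 against 1989 to 3169 in the controls. Their part was not tested. The differences for Gabra2, Gabra4 and Gabrb2 were -0.55 ± 0.21, -0.67 ± 0.25 and -0.53 ± 0.23, with adjusted p of 0.332, 0.340 and 0.454. Under acute restriction, against the same controls, 6 of 7 members were also lower in oligodendrocytes, with a median of -0.31. Of all genes tested there 49.3% were higher, and 0 members had an unadjusted p under 0.05 in edgeR.

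**Figure D5:**
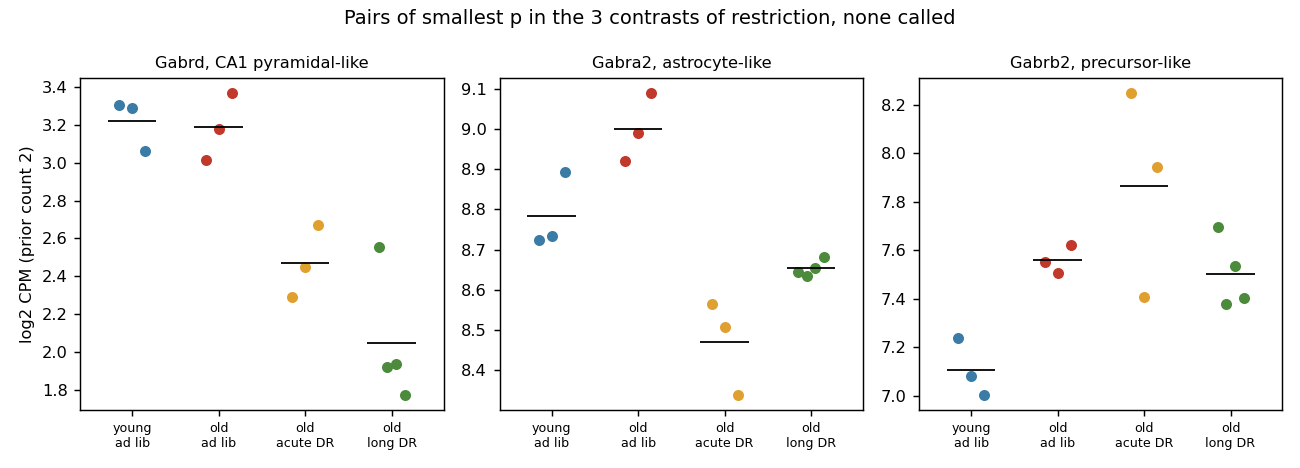
Log2 CPM in each mouse (points) and group mean (bars), by group, for the gene and class pair with the smallest p in each restriction comparison. CA1 Gabrd and astrocyte Gabra2 lie lower in every restricted mouse than in the old mice fed ad libitum, and OPC Gabrb2 overlaps between the restricted groups.

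The other genes of GABA signalling gave few calls, to be read against the 2.11% of all tested genes called for ageing over all classes, 7.14% in granule neurons and 7.83% in oligodendrocytes. Calls under acute restriction are to be read against 0.219% over all classes. Of the other type A subunit genes, 6 of 12 listed were tested, in 43 pairs, with 5 calls for ageing, all higher, a median difference of 0.27, and 1 call under acute restriction. Among these Gabrg3 rose in astrocytes by 0.97 ± 0.18 (adjusted p = 0.0206), and Gabrr2, a rho subunit, rose in oligodendrocytes under acute restriction by 1.38 ± 0.27 (adjusted p = 0.0062). Genes of receptor anchoring and trafficking had 2 calls in 139 pairs for ageing, both in granule neurons: Iqsec3, a guanine exchange factor of inhibitory synapses, by 0.55 ± 0.14 (adjusted p = 0.0384), and Plcl1, which binds the receptor, by 0.38 ± 0.10 (adjusted p = 0.0430). Genes of the GABA-B receptor and of chloride transport had 3 calls in 83 pairs, among them Stk39, a kinase of chloride cotransporters, in granule neurons by 0.71 ± 0.11 (adjusted p = 0.0065), and Kctd16, a GABA-B auxiliary subunit, in oligodendrocytes by 0.53 ± 0.15 (adjusted p = 0.0236). Genes of GABA synthesis, release and uptake had 0 calls for ageing in 44 pairs by edgeR, and 1 under acute restriction, Gad2, a GABA-making enzyme, in OPCs by 2.41 ± 0.47 (adjusted p = 0.0256), from 4 to 5 UMIs per control mouse to 15 to 21. Of the 5 inhibitory neuron markers tested there, Gad2 among them, 3 were higher, with a median of 0.36 and 1 called, and their part was not tested. No other call was made in these lists for restriction.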

How the data were processed

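Whole-hippocampus nuclei of 13 mice were profiled with 10x droplet libraries. Per the file headers and the submitters' processing notes, the authors made the deposited UMI counts with Cell Ranger 4.0.0, and the genome build in those notes is mm10; use of strand and of intronic reads is not given in the sources used here. The matrices hold raw counts, not normalized. The 7 members and all gene lists were chosen with earlier results of these data known.

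Of 105759 barcodes 105427 were kept, those showing 500 or more genes and no more than 5% of UMIs from mitochondria. Scrublet doublets (expected rate 0.8% per 1000 barcodes) were removed after the main clustering, 7.01% of the retained. Scanpy 1.11.5 selected 2000 variable genes and 30 principal components, and Leiden clustering used 20 neighbours and resolution 1 (0.5 for inhibitory neurons). Clusters were named from marker lists with at least 3 raised markers and a mean log2 fold of 1. UMIs were summed per mouse and class (at least 20 nuclei) and tested with edgeR 4.0.16 (quasi-likelihood, TMM, filterByExpr, R 4.3.3), 4 contrasts in 1 fit per class over all groups, Benjamini-Hochberg over all genes of the class, called under 0.05. DESeq2 1.42.0, a replicate block, a term for the libraries numbered 1, median UMIs, a gene-length trend and other clusterings were alternatives. The scripts were tested on simulated data. Nuclei were thinned to 1000 UMIs for shares, which left out 56 granule, 347 oligodendrocyte and 148 microglial nuclei. Shares and UMI numbers carry counting error besides the spread between mice. All 7 members were named, with every call, the smallest p where a contrast had none, the 3 most similar genes, and the 2 smallest p of each other list, except 1 gene that is not reported here. No table column was left unused (0).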

Additional observations from a re-analysis of the deposited data

Results flagged for a closer look

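In 54 groups of 4 mice, 4 had 1 mouse whose gap to the rest was wide against the group's whole range; chance gives about 1 in 20 groups. All 4 were under long-term restriction, which is the only group of that size. Gabra3 in inhibitory neurons was 6.27 in replicate 2 (284 UMIs), against 6.51 to 6.54 in the other 3 mice. Gabra3 in oligodendrocytes was 1.46 in replicate 2 (3 UMIs), against 2.76 to 2.92. Gabrb2 in astrocytes was 5.41 in replicate 3 (18 UMIs), against 3.83 to 4.06. Gabrd in inhibitory neurons was 3.86 in replicate 4 (24 UMIs), against 4.58 to 4.71. The values are log2 CPM.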

How the results depend on the processing

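The number of member pairs called for ageing was the value most open to the processing. Against 5 called, with 2.11% of all genes called, DESeq2 gave 11 (3.55%), no filter on low counts 8 (1.52%), a term for the libraries numbered 1 14 (7.47%), the median UMIs as a covariate 0 (0.0382%), the gene-length trend removed 2 (0.988%), and doublets kept 3 (1.86%). Leaving out 1 replicate gave 1 (without young replicate 2, 0.271%) to 12 (without young replicate 1, 4.22%). Of 2 settings chosen after seeing the data, median UMIs with the number 1 term gave 1 (0.126%), Gabra2 in oligodendrocytes, and the length trend with that term gave 5 (3.97%). The replicate block gave 13 for ageing (6.15%) and 1 for long-term restriction (Gabra2 in oligodendrocytes, -0.67, adjusted p = 0.0400). The numbers pair the mice only in part: libraries numbered 1 deviated together (r = 0.325 to 0.753 in granule neurons, over 0.1 in 6 of 6 pairs), the other numbers did not (4 of 10 pairs), and 5 of 13 libraries correlated best with their own number. In oligodendrocytes r was 0.086 to 0.179 for number 1 and up to 0.183 for the others, and 7 of 13 did. For long-term restriction, leaving out 1 replicate gave 0 to 1 calls (mural Gabra2 at 3.47 without old ad libitum replicate 2, which leaves 1 control mouse with 3 UMIs, assumed to vary like the other groups). For acute restriction, DESeq2 gave 1 and the length trend with the number 1 term gave 1, both astrocyte Gabra2. Long-term against acute restriction gave 0 throughout. Of the 5 ageing calls and the 3 restriction pairs of smallest p, none reversed. In 25 alternatives each, oligodendrocyte Gabra2 and Gabrb2 stayed called in 22, Gabrb1 in 20, Gabra4 in 17, and OPC Gabrb1 in 21; oligodendrocyte Gabrb2 was lowest, 0.87, with median UMIs and the number 1 term, and OPC Gabrb1 was lost with median UMIs (0.56, adjusted p = 0.619), the length trend, doublets kept (0.30, adjusted p = 0.204), and median UMIs with the number 1 term (0.62, adjusted p = 0.134). Gabra2 and Gabra4 in oligodendrocytes were also lost without old ad libitum replicate 2. Of the 7 gaps between the 2 top classes of each gene, the Gabrb1 gap of astrocytes over CA3 alone moved by more than its spread, to 1.92 at Leiden resolution 2, and Gabra5 in CA1 over CA3 was -0.02 there. Thinned to 500 UMIs, the leading shares were 29.3% (Gabra2, granule), 5.07% (Gabra3, subicular or cortical), 12.5% (Gabra4, granule), 8.29% (Gabra5, CA1), 90.4% (Gabrb1, astrocytes), 23.8% (Gabrb2, inhibitory) and 2.04% (Gabrd, granule). The cause of these shifts in calls was not tested.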

Other observations

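A cluster of 43 nuclei without a name was led by Gabra6, the type A subunit known from cerebellar granule neurons, together with Fat2 and Grm4. Of these nuclei 31 came from 1 mouse, acute restriction replicate 2. After thinning to 1000 UMIs, 51.2% of its 31 nuclei in that mouse had a Gabrb2 UMI and 15.1% a Gabra2 UMI, with no replicate.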
